A study of Mus musculus with 6 samples.

Results

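Chromatin accessibility was examined at the clustered histone genes, which supply the bulk of histone protein to dividing cells. These were all protein-coding genes of the mouse annotation (GENCODE vM21 on mm10) with a symbol starting with Hist1h, Hist2h, Hist3h or Hist4h, 67 of 21853 protein-coding genes. ATAC-seq, in which a transposase cuts accessible DNA, had been run on cultured skeletal stem and progenitor cells (SSPCs) of untreated C57BL/6 mice, obtained by plating femoral and tibial bone marrow and used at passage one. There were 3 libraries from young and 3 from middle-aged mice, and the question was how accessibility differed between the ages. The labels gave neither an allele nor a transgene, and they did not say whether the libraries of an age came from separate mice, so the spread between them may be technical. The data are 1 list of called peaks per library, without read counts, so the depth in reads is unknown.

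Clustered histone genes are short, mostly lack introns and are transcribed mainly in S phase, when new DNA is packed into nucleosomes. Npat brings the transcription machinery to them at the histone locus body, and their mRNA ends in a stem-loop bound by Slbp instead of a poly(A) tail. Each gene encodes 1 of 5 types: the core histones H2A, H2B, H3 and H4, which form the nucleosome, or the linker histone H1. Many H2A and H2B genes lie head to head, so that 1 short stretch of DNA serves as promoter for both.

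The Hist1 cluster held 54 of the genes in 4 blocks separated by more than 100000 bp, with 18 genes at chr13:21716143-21833743, 5 at chr13:22035568-22043214, 29 at chr13:23531050-23763666 and 2 at chr13:23934156-23934462 (first to last transcription start site, TSS). Hist2 held 10 genes at chr3:96219865-96269752, Hist3 held 2 at chr11:58948920-58954685 and Hist4 held only Hist4h4, with its TSS at position 136804415 of chromosome 6. By type there were 6 H1, 18 H2A, 18 H2B, 12 H3 and 13 H4 genes.

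The promoters on which the results turn are shown 5′ to 3′ as 1 run each, read from GRCm38 (mm10). For Hist1h2ac/Hist1h2bc at chr13:23683949-23684198 (+ strand) and Hist2h2ac/Hist2h2be at chr3:96220881-96221118 (+ strand), the run is the intergenic stretch between the start sites of a divergent pair, and for the others it is the 250 bases just upstream of the TSS. Hist1h2bk, at chr13:22035620-22035869 (+ strand), had the best-ranked peak, and Hist1h4h, at chr13:23530800-23531049 (+ strand), is an H4 gene higher in every middle-aged library. Hist1h1c, at chr13:23738558-23738807 (+ strand), and Hist1h3a, at chr13:23762387-23762636 (- strand), had some of the largest differences between the ages. Hist3h2ba, at chr11:58948670-58948919 (+ strand), had a peak in the middle-aged libraries alone. Hist1h2aa, at chr13:23934212-23934461 (+ strand), Hist1h2ao, at chr13:21810215-21810464 (+ strand), and Hist1h4m, at chr13:21811496-21811745 (+ strand), had none in any library. Capitals mark the TATA motif TATAAA, the octamer ATTTGCAT, the CCAAT box CCAAT and the H4 motif GGTCC on either strand, and none of these motifs contains another.
Hist1h2bk: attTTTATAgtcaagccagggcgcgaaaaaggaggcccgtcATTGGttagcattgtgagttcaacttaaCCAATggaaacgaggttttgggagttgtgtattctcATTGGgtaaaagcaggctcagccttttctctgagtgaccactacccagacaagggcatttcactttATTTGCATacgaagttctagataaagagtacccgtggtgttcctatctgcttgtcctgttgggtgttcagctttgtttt
Hist1h2ac/Hist1h2bc: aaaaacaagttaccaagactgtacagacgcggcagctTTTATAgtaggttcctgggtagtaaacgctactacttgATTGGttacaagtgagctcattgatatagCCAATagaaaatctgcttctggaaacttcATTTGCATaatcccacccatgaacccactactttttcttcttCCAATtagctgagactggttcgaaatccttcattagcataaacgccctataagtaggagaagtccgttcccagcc
Hist2h2ac/Hist2h2be: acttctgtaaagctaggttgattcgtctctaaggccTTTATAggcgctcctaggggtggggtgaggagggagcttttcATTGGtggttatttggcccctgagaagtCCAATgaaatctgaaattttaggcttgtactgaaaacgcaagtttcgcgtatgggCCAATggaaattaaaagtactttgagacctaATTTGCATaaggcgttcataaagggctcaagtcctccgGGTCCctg
Hist1h4h: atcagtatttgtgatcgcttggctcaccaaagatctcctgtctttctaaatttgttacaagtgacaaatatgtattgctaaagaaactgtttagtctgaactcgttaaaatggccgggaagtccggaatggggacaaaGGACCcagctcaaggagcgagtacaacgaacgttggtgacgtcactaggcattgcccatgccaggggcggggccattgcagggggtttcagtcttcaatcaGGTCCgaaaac
Hist1h1c: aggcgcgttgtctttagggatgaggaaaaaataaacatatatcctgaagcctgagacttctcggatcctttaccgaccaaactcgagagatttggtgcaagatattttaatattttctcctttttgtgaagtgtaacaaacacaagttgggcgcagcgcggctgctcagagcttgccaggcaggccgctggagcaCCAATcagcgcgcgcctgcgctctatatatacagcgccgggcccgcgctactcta
Hist1h3a: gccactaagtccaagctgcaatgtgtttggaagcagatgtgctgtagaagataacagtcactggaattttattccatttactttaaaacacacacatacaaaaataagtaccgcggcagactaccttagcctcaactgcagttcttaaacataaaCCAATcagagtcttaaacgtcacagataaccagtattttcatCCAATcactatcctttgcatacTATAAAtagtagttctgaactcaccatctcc
Hist3h2ba: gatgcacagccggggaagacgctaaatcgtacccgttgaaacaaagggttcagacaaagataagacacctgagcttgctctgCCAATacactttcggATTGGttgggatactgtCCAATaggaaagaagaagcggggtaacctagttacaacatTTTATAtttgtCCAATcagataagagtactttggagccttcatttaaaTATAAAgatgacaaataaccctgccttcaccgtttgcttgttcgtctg
Hist1h2aa: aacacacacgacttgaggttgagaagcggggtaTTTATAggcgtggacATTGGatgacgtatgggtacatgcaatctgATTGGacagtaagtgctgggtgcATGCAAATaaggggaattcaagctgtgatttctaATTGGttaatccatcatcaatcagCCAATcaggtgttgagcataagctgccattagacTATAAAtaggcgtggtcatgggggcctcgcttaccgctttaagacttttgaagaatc
Hist1h2ao: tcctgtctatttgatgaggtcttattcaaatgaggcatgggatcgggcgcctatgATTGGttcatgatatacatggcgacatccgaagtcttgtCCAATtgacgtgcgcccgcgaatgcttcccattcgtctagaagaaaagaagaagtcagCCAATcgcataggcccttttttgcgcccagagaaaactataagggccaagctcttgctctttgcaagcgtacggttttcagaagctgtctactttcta
Hist1h4m: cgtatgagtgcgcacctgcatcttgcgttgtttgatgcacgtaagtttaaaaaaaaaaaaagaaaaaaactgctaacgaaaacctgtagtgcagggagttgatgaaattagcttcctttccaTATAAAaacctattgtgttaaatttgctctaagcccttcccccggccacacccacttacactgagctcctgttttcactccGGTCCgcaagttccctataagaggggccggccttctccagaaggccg

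The 300 bases from 250 upstream to 50 downstream of the TSS were searched for these 4 motifs in all 21853 genes. CCAAT, the site of the NF-Y complex, was present in 56 histone promoters (83.6%) against 39.0% of all promoters. It was found in all 18 H2A and all 18 H2B promoters, in 11 of 12 H3 and 5 of 6 H1 promoters, and in 4 of 13 H4 promoters. The octamer, bound by Pou2f1, was present in 7 of 18 H2A and 8 of 18 H2B promoters and in none of the H1, H3 or H4 promoters, which made 22.4% of histone promoters against 1.60% of all promoters. GGTCC, part of the H4 element read by Hinfp, was present in all 13 H4 promoters, although its share over the 67 genes was close to that of all promoters (46.3% against 47.0%). TATAAA was present in 55.2% against 12.6%. Histone promoters were poorer in G and C than the genome's promoters, with a median of 45.3% against 55.3%, while their observed-to-expected CpG ratio was 0.750 against 0.537. These motif matches are letters in a window and do not show that a factor was bound.

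A gene was counted as having a peak when a called summit lay within 500 bp of a TSS. A peak was found at 47, 49 and 44 of the 67 histone genes in young 1, 2 and 3 (70.1%, 73.1% and 65.7%) and at 51 in each middle-aged library (76.1%). Over all protein-coding genes the shares were 52.2%, 54.3% and 47.6%, and 54.7%, 54.9% and 55.4%. The mean share over the young libraries was thus 69.7% ± 3.76 (SD, n = 3). The middle-aged mean was 76.1% ± 0 (SD, n = 3), which lay 6.47 percentage points higher, against 3.63 over all genes. The lists themselves differed, with 35953, 43941 and 27628 peaks in the young and 46364, 46745 and 48344 in the middle-aged libraries, and young 3 stood apart as the shortest. When each list was cut to its best 27628 peaks, the difference was 2.99 points for the histone genes and 0.720 for all genes, and without young 3 it was 4.48 and 1.73.

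Of the 67 genes, 43 (64.2%) had a peak in all 6 libraries, 15 (22.4%) in none and 9 in some, whereas 45.9% of all genes had one in all and 40.9% in none. Most start sites of other genes on the same stretch of chromosome 13 had no peak, and most of those genes belonged to 1 receptor family. Among 49 other protein-coding genes within the span of the Hist1 cluster, 42 had no peak in any library, including all 36 Vmn1r vomeronasal receptor genes, and 3 (Zfp322a, Abt1 and Hfe) had one in all. Without the Vmn1r genes 13 other genes remained. Of these, 6 (46.2%) had no peak in any library, near the 40.9% of all genes, 4 had one in some and 3 (23.1%) in all. Start sites in the Hist1 span with a peak in all libraries were thus those of 35 histone genes and 3 other genes. The histone genes with a peak lay in blocks 1 to 3, while block 4 had no peak at all.

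**Figure D1:**
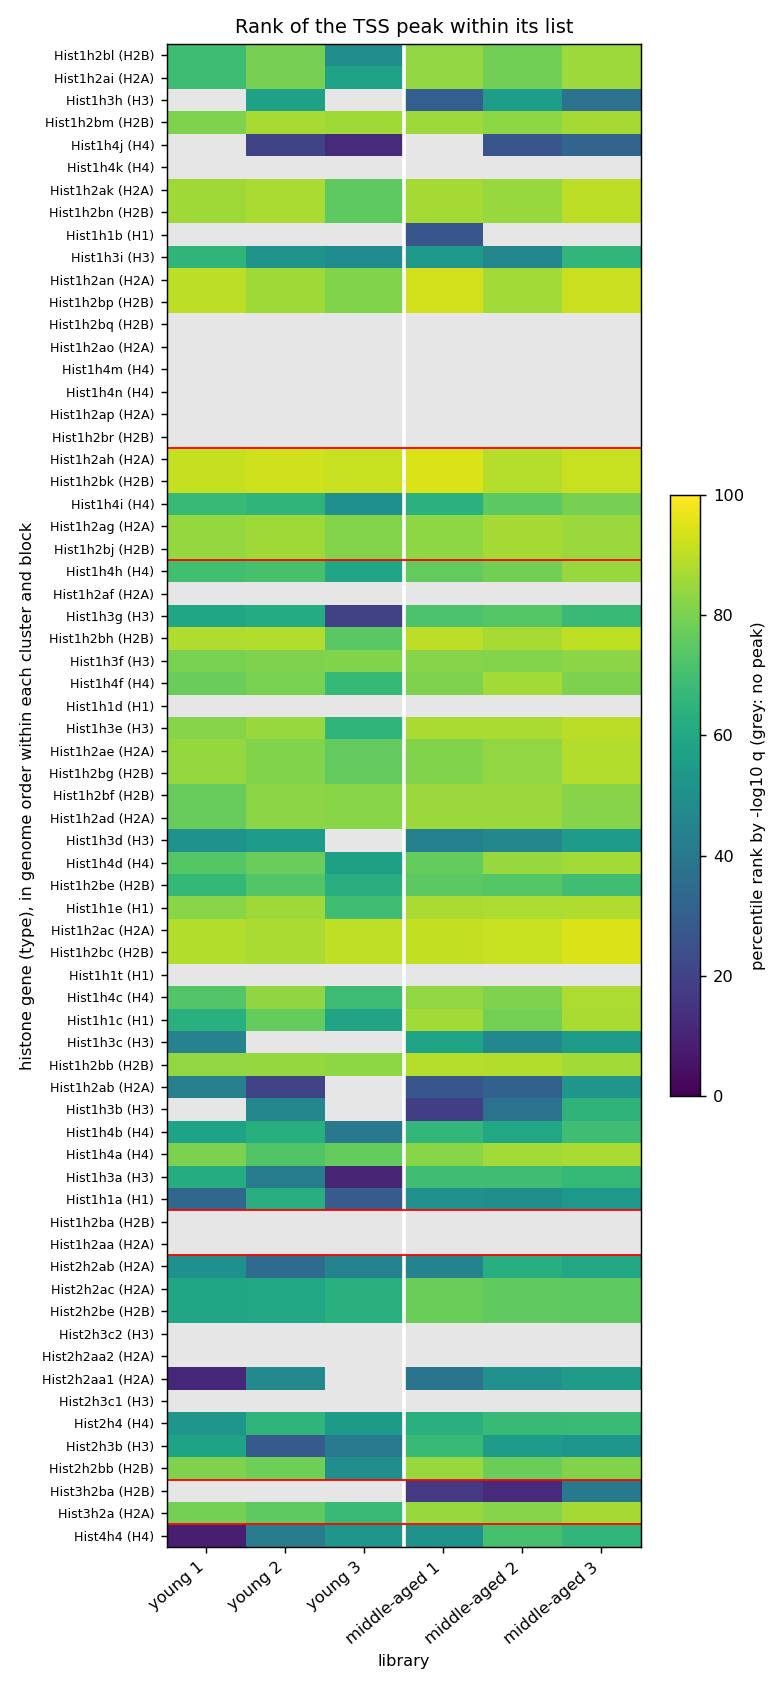
Percentile rank of the TSS peak, by −log10 q within its library's list, for the 67 histone genes (rows, in genome order, with red lines between clusters and blocks) in 3 young and 3 middle-aged libraries (columns). Grey cells mark no called peak, which holds for 15 genes in all 6 libraries, and yellow cells mark the highest ranks.

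Each peak was given its percentile rank by −log10 q within its own list, where 100 is the best peak, because −log10 q depends on depth. This rank orders peaks by significance and is not a height. Over the 43 genes called in every library the median of the mean ranks was 79.6, ranging from 46.5 to 91.8, against 85.2 over the 10027 genes called in every library. The histone types differed in their ranks. H2B had the highest median (84.5, 14 of 18 genes called in all libraries), followed by H2A (82.5, 11 of 18), H1 (75.2, 3 of 6), H4 (73.3, 9 of 13) and H3 (57.0, 6 of 12). The ranges of the types overlapped, many H2A and H2B genes share peaks, and no test was made between neighbours in this order.

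**Figure D2:**
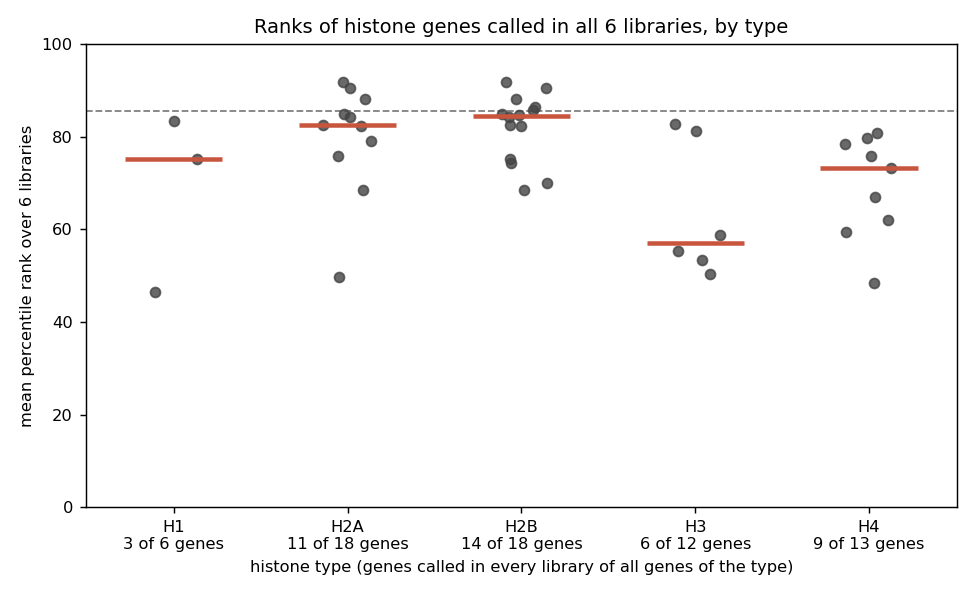
Mean percentile rank over the 6 libraries for histone genes called in all of them, 1 point per gene, by histone type, with the median of each type in red and the mean over libraries of the median of all genes as a dashed line. Most H2A and H2B points lie above 80, and 4 of the 6 H3 points lie between 50 and 60.

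The best-ranked histone peak was the one shared by the H2A gene Hist1h2ah and the H2B gene Hist1h2bk in block 2, whose ranks were 91.4, 92.6 and 91.5 in young and 94.5, 89.0 and 91.7 in middle-aged libraries. Next came the peak of the H2A gene Hist1h2ac and the H2B gene Hist1h2bc in block 3, with 88.4, 87.3 and 90.2 in young and 90.7, 91.7 and 94.2 in middle-aged libraries. The first of these overlapped between the ages, and the second did not. Both promoters hold CCAAT boxes and an octamer, as printed above. Among H1 genes, Hist1h1e (mean rank 83.4) and Hist1h1c (75.2) were highest and Hist1h1a (46.5) was lowest. Among H3 genes, Hist1h3e (82.6) and Hist1h3f (81.3) led and Hist2h3b (50.4) was lowest, and among H4 genes the highest were Hist1h4a (80.8) and Hist1h4c (79.6). At the low end, Hist2h2ab (49.6) was the lowest H2A gene, Hist2h2be (68.5) the lowest H2B gene and Hist4h4 (48.5) the lowest H4 gene. Among genes called in all libraries, 4 of the 5 types thus had their lowest-ranked member outside Hist1. Genes called in only some libraries are left out of this order, and some of them, both in Hist1 and outside it, ranked lower.

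The remaining members of the smaller clusters lay between these values. Hist2h4, an H4 gene, had ranks of 52.8, 65.4 and 54.5 in young and 63.4, 67.7 and 68.1 in middle-aged libraries. Hist2h2bb, an H2B gene, had 80.7, 77.9 and 49.4 in young and 84.5, 77.5 and 81.2 in middle-aged libraries. Hist2h3b, an H3 gene, had 57.8, 28.4 and 40.9, and 67.8, 55.0 and 52.7. In each of these 3 genes the ages overlapped, as they did in Hist2h2ab, with 50.04, 34.9 and 44.7 in young and 45.1, 62.8 and 60.0 in middle-aged libraries. Hist3h2a, an H2A gene, did not overlap, with 78.9, 75.1 and 67.3 in young and 84.5, 81.7 and 86.4 in middle-aged libraries. Its peak was also wide, with a median of 834.5 bp against 422 bp for the histone genes and 564 bp for all genes.

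Histone summits lay further upstream than usual. Over the 43 genes the median summit lay at -89 bp from the TSS (negative is upstream), against -41 bp over all genes, and 40 (93.0%) were upstream, against 79.4% of all genes. By type the median position was -129 bp for H2B, -105.5 bp for H2A, -53.5 bp for H3, -34.5 bp for H4 and -6.5 bp for H1. There were 12 divergent H2A/H2B pairs with start sites 176 to 306 bp apart, and 9 of them were called in every library. In all 9, 1 peak served both genes (in 6 of 6 libraries for 8 pairs and in 5 of 6 for Hist1h2bl/Hist1h2ai), with its summit between the start sites. Such a summit is upstream of both genes by their layout and is counted for each in the values above. For Hist1h2ac/Hist1h2bc the summit lay 56 to 107 bp from the Hist1h2ac TSS, and for Hist2h2ac/Hist2h2be 9 to 72 bp from the Hist2h2ac TSS. The 3 remaining pairs, Hist1h2bq/Hist1h2ao, Hist1h2ap/Hist1h2br and Hist1h2ba/Hist1h2aa, had no peak in any library. Hist1h2bh and Hist1h3f, an H2B and an H3 gene 660 bp apart, had separate peaks, and that of Hist1h3f lay 300 to 356 bp downstream of its annotated TSS.

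**Figure D3:**
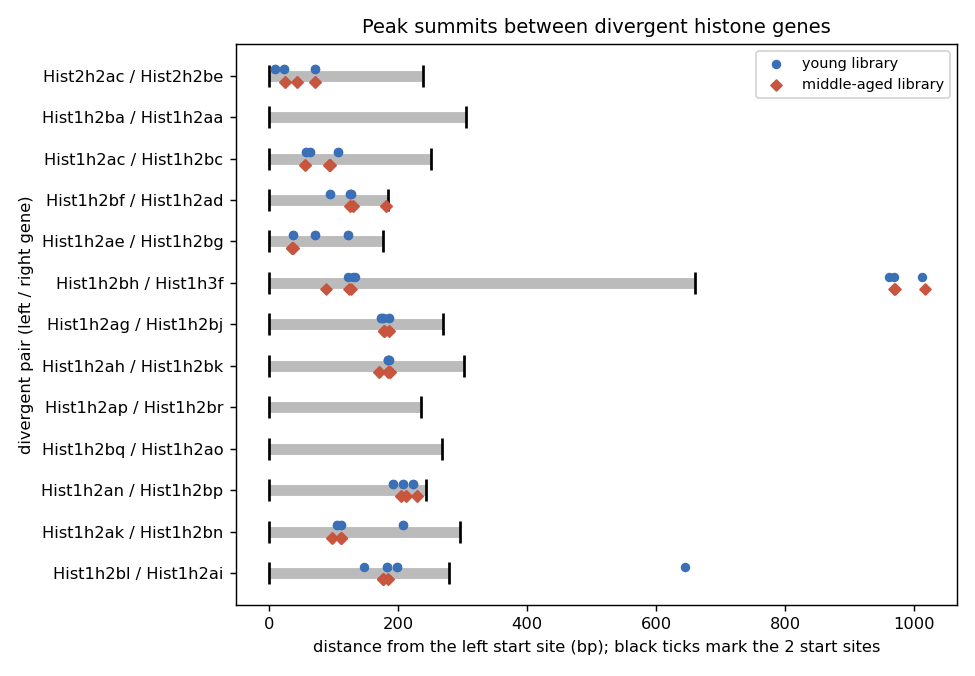
Called summits at 13 divergent histone gene pairs, as distance in bp from the left start site, with black ticks at both start sites, blue circles for young and red diamonds for middle-aged libraries. Summits fall between the start sites of 9 H2A/H2B pairs, except 1 separate peak of Hist1h2ai in young 3 at 644 bp, and the Hist1h3f summits lie beyond its start site.

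The genes with no peak in any library were of several kinds. Hist1h1t, a linker histone gene of the testis, and Hist1h2ba and Hist1h2aa, the H2B and H2A genes of the testis that make up block 4, were among them. Of 6 germ cell markers, 5 (Ddx4, Stra8, Sycp3, Tnp1 and Prm1) had no peak in any library either, and Dazl had one in all. The Hist1h2aa promoter printed above carries an octamer and CCAAT boxes. Thus these motifs were present without a called peak, as they were at Hist1h2ah and Hist1h2bk with one. A replication-dependent linker gene, Hist1h1d, the H4 gene Hist1h4k and the H2A gene Hist1h2af also had none. At its annotated TSS the Hist1h1d promoter held no CCAAT box and 0 CpG. Its share of G and C was 30.7%, against a median of 51.2% over the H1 promoters. Whether this TSS is the one used in these cells was not tested.

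The other 9 genes without a peak lie in repeated sequence. These are Hist1h2bq, Hist1h2ao, Hist1h4m, Hist1h4n, Hist1h2ap and Hist1h2br at the end of block 1, and Hist2h3c2, Hist2h2aa2 and Hist2h3c1 in the middle of Hist2. The share of 50-base stretches that occur only once in the genome, within 500 bp of the TSS, was 0% at Hist1h2bq, Hist1h2ao, Hist1h2ap and Hist1h2br, 5.78% at Hist1h4m, 4.83% at Hist1h4n, 5.25% at Hist2h3c1 and Hist2h3c2 and 29.7% at Hist2h2aa2. Hist1h4m and Hist1h4n have identical sequence over the 250 bases printed above, Hist1h2bq and Hist1h2br are 98.4% identical there, and the windows of Hist1h2ao and Hist1h2ap share 96.8% of their 50-base stretches. The median share of unique stretches was 5.78% over the 15 genes without a peak, 71.3% over the 9 called in some libraries and 72.7% over the 43 called in all, of which the lowest was 42.5%. Among the 9 the lowest was 35.8%, at Hist2h2aa1. This gene was called in 5 libraries although its window shares 64.2% of its stretches with that of Hist2h2aa2. How reads that match several places were placed is not given in the sources used here, so closed chromatin and reads lost in mapping cannot be told apart at these 9 genes. The 6 other genes without a peak had between 70.7% (Hist1h2af) and 100% (Hist1h1d and Hist1h1t) unique stretches.

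**Figure D4:**
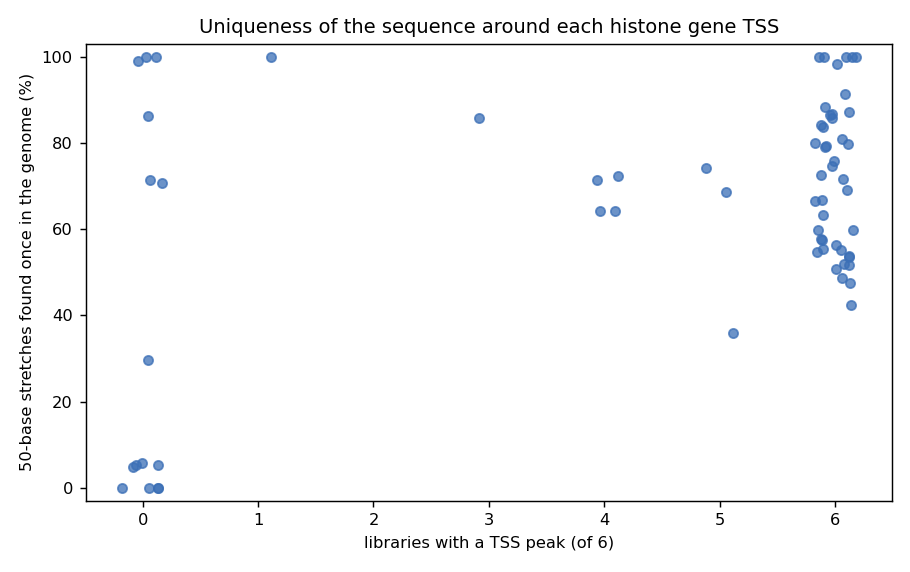
Share of 50-base stretches found once in the genome within 500 bp of the TSS (y axis, %) against the number of libraries with a TSS peak (x axis, spread sideways for visibility), 1 point per histone gene. At 0 libraries 9 of 15 points lie under 50%, and at 6 libraries the lowest point is 42.5%.

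Presence differed with age at few histone genes. Hist3h2ba, an H2B gene, was the only one with a peak in every middle-aged and in no young library, a pattern shown by 96 of 21853 genes (0.439%). Its peaks were small, with ranks of 16.4, 11.8 and 40.5. No histone gene had a peak in every young and in no middle-aged library, which held for 1 gene overall (0.00458%). The H3 genes Hist1h3h, Hist1h3c and Hist1h3b had a peak in 1 young and all 3 middle-aged libraries. The share of all genes with this pattern was not determined, so it cannot be read as particular to H3 or to histone genes. The ranks of Hist1h3h were 57.1 in young 2 and 29.9, 55.8 and 37.1 in the middle-aged libraries, those of Hist1h3c were 44.1 in young 1 and 58.2, 46.8 and 55.4, and those of Hist1h3b were 46.3 in young 2 and 18.5, 37.2 and 65.0. None of these 4 genes was called in young 3, the shortest list. Hist1h1b, Hist1h4j, Hist1h3d, Hist1h2ab and Hist2h2aa1 differed by at most 1 library between the ages.

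Among the 43 genes called in all 6 libraries, 15 (34.9%) ranked higher in every middle-aged than in every young library, against 30.5% of the 10027 genes tested, and 0 ranked lower in every middle-aged library, against 0.279%. The share of histone genes was therefore near the background. When a peak shared by a pair was counted once, 13 of 35 peaks (37.1%) were higher. With 3 libraries per age an exact permutation test cannot give less than p = 0.1, which each of the 15 genes reached. The difference of group means was above 0 at 40 of the 43 genes, against 9406 of the 10027 genes tested, so most genes of either set went up. At Hist1h3i, Hist1h2ah and Hist1h2bk it was -0.02, -0.15 and -0.15 rank points. The median difference was 8.55 rank points against 4.88 over all genes. Ranks near the top have less room, and in the same range of mean ranks (68.5 to 84.5) the median was 8.83 over 22 histone genes and 8.88 over 2757 other genes, with 45.5% and 37.1% of them higher in every middle-aged library. On equally long lists 3 of 40 histone genes were higher in every middle-aged library, against 9.47% of all genes, and the median difference was 1.65 against 0.89. Without young 3 the count was 16 of 46 (34.8%, against 32.7% of all genes) and the median difference 4.32 against 2.34, and without young 2 or without middle-aged 2 the count was 23 of 43 (53.5%, against 58.7% and 41.6% of all genes).

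**Figure D5:**
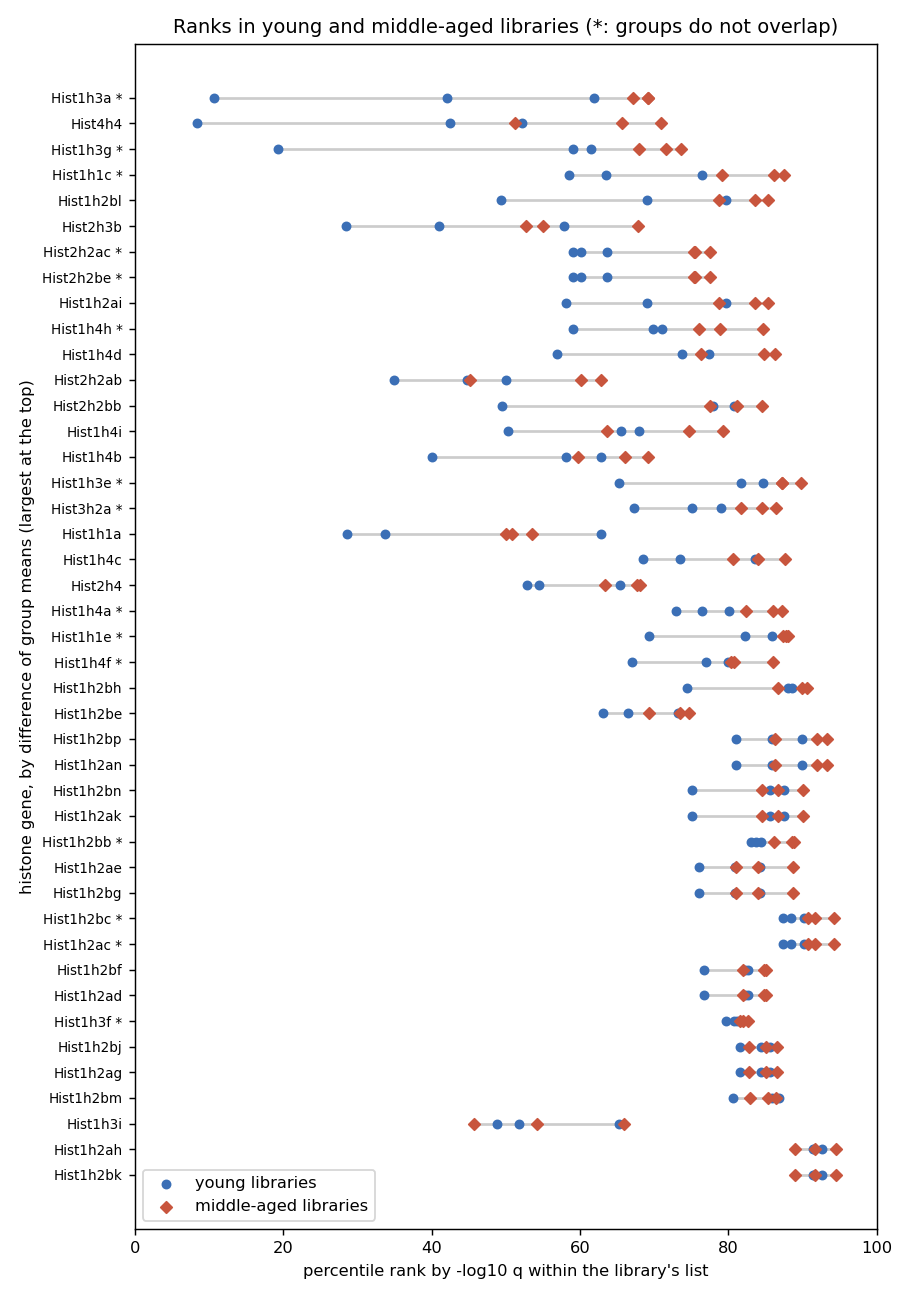
Percentile rank by −log10 q in the 3 young (blue circles) and 3 middle-aged (red diamonds) libraries for the 43 histone genes called in all 6, ordered by the difference of group means, with an asterisk at the 15 genes whose groups do not overlap. The genes at the top, such as Hist1h3a, have 1 or more low young points. At the bottom, Hist1h2ah and Hist1h2bk have ranks near 90 at both ages, while Hist1h3i next to them has ranks of 45.8 to 65.9.

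The largest difference without overlap was at the H3 gene Hist1h3a, with ranks of 61.8, 42.0 and 10.6 in young and 69.2, 69.1 and 67.1 in middle-aged libraries, a difference of 30.3. The H3 gene Hist1h3g had 59.0, 61.5 and 19.2 in young and 71.6, 73.7 and 67.9 in middle-aged libraries, a difference of 24.5. In both genes young 3 lay far below the other young libraries. The linker histone gene Hist1h1c had 63.5, 76.4 and 58.5 in young and 86.1, 79.1 and 87.5 in middle-aged libraries, a difference of 18.1. The pair Hist2h2ac and Hist2h2be, an H2A and an H2B gene with 1 shared peak, had 59.0, 60.1 and 63.6 in young and 77.6, 75.5 and 75.3 in middle-aged libraries, a difference of 15.3. Here the libraries of each age lay close together. The H4 gene Hist1h4h had 69.8, 71.1 and 59.0 in young and 76.1, 78.9 and 84.6 in middle-aged libraries, a difference of 13.2. On equally long lists the ages overlapped at Hist1h3a, Hist1h3g, Hist2h2ac, Hist2h2be and Hist1h4h, with differences of 23.2, 15.6, 10.3, 10.3 and 7.78, and remained apart at Hist1h1c, with 15.3. Hist4h4, also an H4 gene, had a difference of 28.3 but overlapped, with 8.4, 42.5 and 52.1 in young and 51.2, 70.9 and 65.7 in middle-aged libraries.

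The 15 genes were the H1 genes Hist1h1c and Hist1h1e, the H2A genes Hist1h2ac, Hist2h2ac and Hist3h2a, the H2B genes Hist1h2bb, Hist1h2bc and Hist2h2be, the H3 genes Hist1h3a, Hist1h3e, Hist1h3f and Hist1h3g, and the H4 genes Hist1h4a, Hist1h4f and Hist1h4h. On equally long lists 3 of the 15, Hist1h1c, Hist1h1e and Hist1h3e, still did not overlap, 11 kept their direction but overlapped, and Hist1h3f turned. Its difference was 1.51 rank points on the full lists, -5.35 on equally long lists, -0.0140 on log2 fold enrichment and -0.16 on the log2 height of the summit, centred on the median of each library. By type the 15 genes were 2 of 3 H1, 3 of 11 H2A, 3 of 14 H2B, 4 of 6 H3 and 3 of 9 H4 genes called in all libraries. By place they were 12 of 22 in block 3 of Hist1, 0 of 8 in block 1, 0 of 5 in block 2, 2 of 6 in Hist2, 1 of 1 in Hist3 and 0 of 1 in Hist4. Over all genes called in every library the share was 30.5%. Both genes of a pair with a shared peak are counted here, and no test was made between types or places. The median difference was 8.16 rank points in block 3, 4.63 in block 1 and 0.962 in block 2. Members of divergent pairs, whose median mean rank was 84.3, had a median difference of 4.12 with 5 of 20 higher, and the other members, with a median mean rank of 73.3, had 10.9 with 10 of 23 higher. The 20 include Hist1h2bh and Hist1h3f, which have separate peaks, and Hist1h3f is 1 of the 5.

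None of the 43 histone genes passed an adjusted p of 0.05 in limma on the ranks, as none did among the 10027 genes (0.0%). Before adjustment 4 histone genes and 1526 genes in all (15.2%) were under 0.05. Those 4 were Hist1h1c (difference 18.1 ± 6.14 SE), Hist2h2ac and Hist2h2be (15.3 ± 6.24 SE) and Hist1h3a (30.3 ± 12.8 SE), each with an adjusted p of 0.312 in limma. The ranks thus gave no histone gene a difference that held over all genes tested.

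A second measure was the summit height, the pileup at the summit recovered from the deposited p-value and fold enrichment and divided by the genome-wide background of that list. By limma on log2 summit height, 21 of 43 histone genes (48.8%) were higher in the middle-aged libraries at an adjusted p of 0.05, against 46.6% of all genes. The median log2 difference was 0.50 for the histone genes and 0.48 for all genes, so the difference at the histone genes was similar in size to that over all start sites. Hist1h3a had heights of 12.0, 11.7 and 12.1 times background in young and 19.7, 20.4 and 19.0 in middle-aged libraries, a log2 difference of 0.72 ± 0.24 SE with an adjusted p of 0.0176 in limma. Its 3 young heights were nearly equal although its young ranks ran from 10.6 to 61.8. Hist1h1c had heights of 10.7, 17.7 and 15.2 in young and 27.2, 21.6 and 29.4 in middle-aged libraries, a log2 difference of 0.86 ± 0.23 SE with an adjusted p of 0.00975 in limma. Once each library was centred on its own median over all genes, the median difference was 0.02 for the histone genes. This alternative was chosen after the data were seen. With it 3 of 43 histone genes (6.98%) were higher in every middle-aged library, against 6.25% of all genes, and 0 histone genes passed limma. On log2 fold enrichment over the local background the histone genes lay below all genes, with a median difference of 0.19 against 0.24 and 10 of 43 (23.3%) against 38.6% higher in every middle-aged library. In bulk cultures a larger share of cells with an open promoter and a more open promoter in each cell cannot be told apart.

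Genes of the histone pathway were given by lists defined by function. All 21 genes of histone gene transcription and histone mRNA processing had a peak in every library, and 9 (42.9%) ranked higher in every middle-aged library. Over all genes 45.9% had a peak in every library, and 30.5% of these were higher. Npat, the coactivator named above, had ranks of 99.7, 99.9 and 99.7 in young and 99.9, 99.8 and 99.6 in middle-aged libraries, which overlapped. Slbp, the stem-loop binding protein, had 92.5, 95.6 and 87.5 in young and 97.8, 95.7 and 97.3 in middle-aged libraries, which did not. The largest non-overlapping differences in this list were at Cpsf1 (17.4), Zfp473 (7.41) and Eri1 (6.77), which encode a cleavage factor subunit, a zinc finger protein of histone pre-mRNA processing and an exonuclease of the histone stem-loop. Of 11 replication-independent histone genes, which are expressed outside S phase, 9 had a peak in every library and 4 of these (44.4%) were higher, with the largest differences at H2afx (10.4), H3f3a (6.83) and H3f3b (5.50). Of 22 histone chaperone genes, 20 had a peak in every library and 6 of the 20 were higher, led by Ubn1 (7.96), Chaf1b (6.20) and Hat1 (5.86). Of 22 S-phase and cell cycle genes, 20 had a peak in every library and 5 of the 20 were higher, led by Top2a (10.3), Mcm7 (8.46) and Cdt1 (5.72). Of 86 cytosolic ribosomal protein genes, 75 had a peak in every library and 33 (44.0%) were higher, led by Rpl38 (21.2), Rpl11 (19.5) and Rps15 (18.3). None of these lists had a gene that ranked lower in every middle-aged library, and none had a gene past an adjusted p of 0.05 in limma on the ranks.

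The label of the cells was checked against marker genes. Of 10 stromal markers, Kitl and Runx2 had a TSS peak in all 6 libraries, Cxcl12, Pdgfra, Pdgfrb and Twist2 in some, and Lepr, Prrx1, Grem1 and Col1a1 in none. Of 10 hematopoietic and macrophage markers, 8 (Ptprc, Spi1, Adgre1, Cd68, Lyz2, Fcgr3, Laptm5 and Cd53) had one in all libraries, Csf1r in some and Itgam in none, and 3 of the 8 (Spi1, Adgre1 and Laptm5) ranked higher in every middle-aged library. Of 7 endothelial markers only Cdh5 had one in all libraries. Over all genes 45.9% had a peak in all libraries, against 20% of the stromal and 80% of the hematopoietic markers. Of genes called in all libraries 30.5% ranked higher in every middle-aged library, against 37.5% of the hematopoietic markers. The number of hematopoietic markers with a peak was 8, 9 and 9 in young and 8 in each middle-aged library, and the median rank of the 8 was 59.0, 60.0 and 53.4 in young and 68.5, 67.0 and 67.3 in middle-aged libraries. Their part in the histone results was not tested.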

How the data were processed

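ATAC-seq was performed on SSPCs of 3 young and 3 middle-aged mouse libraries. Per the study's methods, the authors aligned reads to mm10 with Bowtie2, removed duplicates with Sambamba and called peaks per library with MACS; settings for extension, shift and threshold are not given in the sources used here. Each deposited list gives a score, a fold enrichment (ratio) over background, and −log10 p and −log10 q values at each summit. The lists held 27628 to 48344 peaks. The score column was not tested. Peaks were assigned to the 54361 protein-coding start sites of GENCODE vM21 by a summit within 500 bp, keeping the best −log10 q per gene. Percentile ranks within each list were compared gene by gene, by non-overlap of the ages, with an exact two-sided permutation test over 20 assignments, and with limma 3.58.1 (R 4.3.3; group only, trended and robust variance, Benjamini-Hochberg over all genes called in every library). Pileups were solved from the deposited fold enrichment and Poisson p-value (100.0% within 0.1 of a whole number). Scripts were tested on simulated data. Sequences were read from GRCm38, and 50-base stretches were matched to it on both strands (Python 3.11.15). Alternatives were summit windows of 250 and 1000 bp, any overlap, the most upstream start site, −log10 q of at least 5, equally long lists, uncalled genes at rank 0, height and fold enrichment, a replicate block and leaving out each library.

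The members and lists were chosen with earlier results of these data known. Genes were named by rule: histone genes called in no library or differing by at least 2 libraries between ages; the 2 highest and the lowest per type; the 5 largest non-overlapping differences in each direction; all of Hist2, Hist3 and Hist4; testis histones; and of each list the 3 largest non-overlapping differences, Npat and Slbp. H3f3c, named in a list, was not matched to a protein-coding gene. The rest of the 15 non-overlapping genes, the heights of single genes and the neighbouring genes were added after their values were seen.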

Additional observations from a re-analysis of the deposited data

How the results depend on the processing

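Under the alternatives, the share and median differences over the histone genes kept their direction. Their size, and the count of genes higher in every middle-aged library, depended on list length and on the measure. On the full lists that count was 34.9% of histone genes against 30.5% of all genes. The histone share was below that of all genes on equally long lists, on log2 fold enrichment and without young 2. On equally long lists the share of histone genes with a peak was 2.99 points higher in middle-aged libraries and the median rank difference was 1.65. Of the 40 histone genes called in all of these lists, 3 (7.5%, against 9.47% of all genes) were higher in every middle-aged library. On log2 summit height the median difference was 0.50 (0.48 over all genes), 31 genes (72.1%, against 60.7% of all genes) were higher in every middle-aged library, and 21 histone genes and 4678 of all genes passed limma. With each library's heights centred on their median (chosen after seeing the data), the median was 0.0203. There 3 genes (6.98%, against 6.25% of all genes) were higher and 1 of all genes passed limma. On log2 fold enrichment the median was 0.19 against 0.24 over all genes, 10 of 43 genes (23.3%, against 38.6%) were higher and 4 of all genes passed limma. At Hist1h3f the direction reversed on equally long lists (-5.35 rank points), log2 fold enrichment (-0.0140) and centred height (-0.16), and at Hist1h2bb on centred height (-0.00032). The cause was not tested. Of 237 values for the 15 non-overlapping genes, 203 kept direction and non-overlap, 30 kept direction only and 4 reversed.

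Leaving out each library gave a share difference of 4.48 to 8.21 points, a median difference of 4.32 to 8.74, and 16 to 23 genes higher and 0 lower. Those counts were 34.8% to 53.5% of the histone genes called, while 32.7% to 58.7% of all genes were higher. In these fits 0 histone genes and 0 to 1 of all genes passed limma. With a replicate block the share difference was 6.47, the median difference 8.55 and the limma counts 0. Same-numbered libraries did not deviate together (correlations 0.00792, -0.0420 and -0.0703 over 10027 genes), and differently numbered ones gave -0.0389 to 0.0852. With 3 libraries per age this cannot show whether same-numbered libraries were prepared together. The block changed no call. The depth in reads is unknown, and its part in which low peaks were called was not tested.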
